A study of Arabidopsis thaliana with 20 samples.

Results

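Inflorescence transcriptomes of the Arabidopsis thaliana (thale cress) overexpression lines dvl1-1D and 35S:DVL8 were compared with each other, gene by gene. The comparison used 6 libraries, 3 of each line, out of 15 in the deposited table. It covered every gene with at least 1 RPKM (reads scaled by gene length and by library total) in at least 3 of the 6, which was 19704 of 37336 genes. The lines were dvl1-1D, labelled by that allele alone, and 35S:DVL8, labelled 35S-.DVL8.2. The 3 wild-type Columbia libraries served as a common point of orientation and carried neither alteration. According to the series text the libraries of a group are independent biological replicates, and the authors had left out 5 of 20 samples, 1 of each group, as outliers. The dvl1 and rtfl9 quintuple mutants entered only the estimate of the spread between replicates. As background, dvl1-1D came from activation tagging, in which enhancers of the cauliflower mosaic virus 35S promoter land near a gene and raise it, whereas in 35S:DVL8 that promoter drives DVL8 directly. Each overexpressor was a single labelled line. The identity of the gene, the level it reached and the position of the insertion therefore cannot be told apart in any difference between the lines.

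DVL (DEVIL) genes, also named RTFL (ROTUNDIFOLIA FOUR-LIKE), encode small plant peptides that share a short conserved stretch near the C-terminus. Overexpression of several members is known to shorten leaves, stems and other organs along their long axis and to give fruits with horn-like outgrowths. Single loss-of-function mutants show little, and overlapping roles of the members are the usual account of that.

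The coding sequences of the 2 overexpressed genes are shown because the comparison turns on how alike they are. They were read from the RefSeq TAIR10.1 genome, DVL1 at chr5:5232731-5232886 on the minus strand and DVL8 at chr3:20590923-20591162 on the plus strand. Capitals mark the stretch that aligned when the codons were translated (local alignment, BLOSUM62).
DVL1: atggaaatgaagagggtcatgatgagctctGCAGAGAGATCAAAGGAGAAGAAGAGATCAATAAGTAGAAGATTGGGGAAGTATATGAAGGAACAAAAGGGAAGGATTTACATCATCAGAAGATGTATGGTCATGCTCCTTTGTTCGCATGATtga
DVL8: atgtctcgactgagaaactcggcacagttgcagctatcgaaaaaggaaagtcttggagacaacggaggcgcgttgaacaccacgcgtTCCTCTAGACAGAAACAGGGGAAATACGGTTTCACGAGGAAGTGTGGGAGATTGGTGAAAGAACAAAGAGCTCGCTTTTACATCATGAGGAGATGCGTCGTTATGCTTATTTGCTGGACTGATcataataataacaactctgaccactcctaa
DVL1 has 51 codons before its stop and DVL8 has 79, each in 1 coding exon. The aligned stretch spans 41 codons in both, codons 11 to 51 of DVL1 and codons 30 to 70 of DVL8. Of these 41 codons, 19 (46.3%) encode the same amino acid. The stretch thus takes in the end of the DVL1 peptide, while DVL8 runs on beyond it and has a longer start.

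Reads assigned to genes numbered 23116142, 27080662 and 25836548 in the dvl1-1D libraries and 27869635, 27650355 and 33631433 in the 35S:DVL8 libraries. The first principal component of the 6 libraries took 58.7% of the variance and separated the lines, with dvl1-1D between -23.1 and -17.3 and 35S:DVL8 between 18.4 and 24.3. Replicate 2 of 35S:DVL8 stood apart from its group. In RPKM + 1, 85 genes differed more than 2-fold from both of its fellow replicates, against 4 to 26 in the other 5 libraries. Results that rest on it are given with and without it. The 8 inflorescence markers were all expressed, and their summed level lay between 495 and 546 RPKM in dvl1-1D, between 462 and 513 RPKM in 35S:DVL8 and between 500 and 519 RPKM in wild type. The summed level of 4 mature seed markers stayed at or below 0.146 RPKM in dvl1-1D, 0.163 RPKM in 35S:DVL8 and 0.234 RPKM in wild type. The 4 root markers summed to between 1.44 and 1.9 RPKM in dvl1-1D, 1.99 and 2.05 RPKM in 35S:DVL8 and 1.77 and 1.88 RPKM in wild type. The labels describe the tissue as whole inflorescences with the oldest flower open, as inflorescences with flowers past anthesis, or as inflorescence apices, depending on the field. RNA came from whole organs, so fewer cells of a type and less RNA per cell cannot be told apart.

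Each line overexpressed its own gene and not that of the other line. DVL1 had 612, 525 and 543 RPKM in dvl1-1D, and no read was assigned to it in the 35S:DVL8 or wild-type libraries. This was 21398 reads against 0 over the 35S:DVL8 group, at least 8360-fold higher in dvl1-1D when 3 reads over the group are taken as the floor. Floors and read intervals cover counting error only. DVL8 had 0.076, 0.0324 and 0.238 RPKM in dvl1-1D, against 173, 160 and 152 RPKM in 35S:DVL8 and 0.0386, 0.0616 and 0.0526 RPKM in wild type. The ratio of its read shares was 1400 in 35S:DVL8 over dvl1-1D (95% counting interval 758 to 2910), from 16357 reads against 10. Per annotated gene length, DVL1 in dvl1-1D stood at 560 ± 46.0 RPKM and DVL8 in 35S:DVL8 at 162 ± 10.9 RPKM (SD, n = 3 each). The transcript made by either insertion is not known from these files, so the values are not compared.

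Of the 24 DVL/RTFL genes looked for, 12 passed the expression filter, 4 of the other 12 had no read in any of the 6 libraries, and 6 of the 12 tested were called different between the lines (limma, adjusted p under 0.05). That count includes DVL1 and DVL8, and 33.2% of all tested genes were called. DVL6 had 37.4, 35.8 and 36.7 RPKM in dvl1-1D, against 20.7, 22.5 and 21.2 RPKM in 35S:DVL8 and 24.6, 22.3 and 22.9 RPKM in wild type. The dvl1-1D libraries lay above all others, and the log2 difference to 35S:DVL8 was 0.74 ± 0.05 (SE; adjusted p = 6.08e-07). DVL20 rose in the same way, with 8.76, 7.57 and 8.25 RPKM in dvl1-1D, against 4.67, 4.8 and 5.42 RPKM in 35S:DVL8 and 3.77, 3.76 and 3.86 RPKM in wild type (log2 0.62 ± 0.13, adjusted p = 0.00214). DVL16, known as ROT4 and the founding member of the family, had 10.2, 5.48 and 4.38 RPKM in dvl1-1D, against 2.98, 2.49 and 4.1 RPKM in 35S:DVL8 (log2 0.82 ± 0.22, adjusted p = 0.0103). Its groups came close, at 4.38 RPKM in dvl1-1D and 4.1 RPKM in 35S:DVL8. DVL18 fell to 2.43, 1.97 and 2.28 RPKM in dvl1-1D, against 3.22, 3.45 and 3.08 RPKM in 35S:DVL8 (log2 -0.40 ± 0.10, adjusted p = 0.0063). DVL3 (whose sign depended on the setting), DVL4, DVL5, DVL11, DVL13 and DVL17 did not pass the test, with log2 differences between -0.20 and 0.26, and of these DVL4 and DVL11 passed without replicate 3 of 35S:DVL8 (adjusted p = 0.0262 and 0.032).

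**Figure D1:**
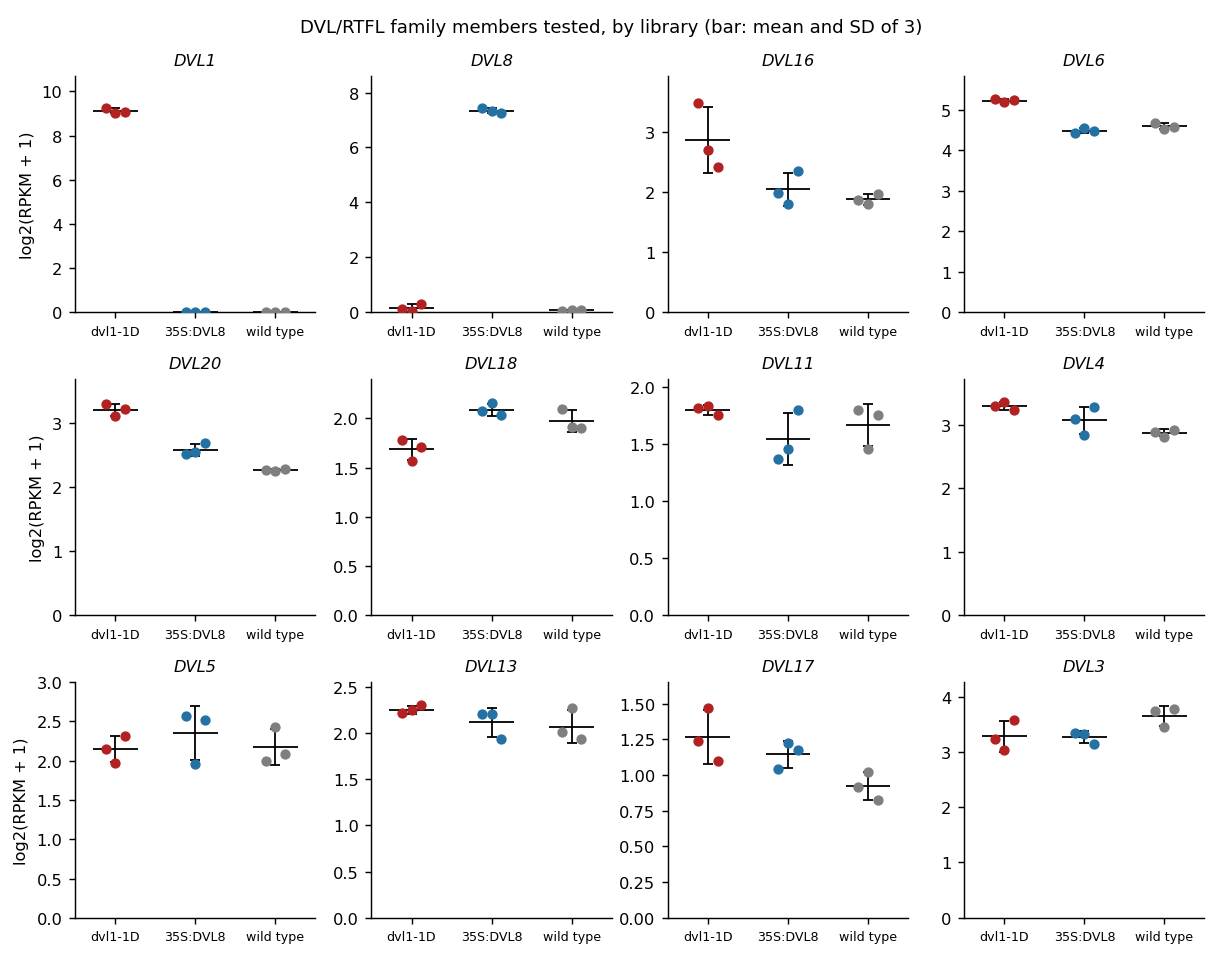
Level of the 12 tested DVL/RTFL genes in each library, as log2(RPKM + 1), for dvl1-1D, 35S:DVL8 and wild type (points: libraries; bars: mean and SD of 3). DVL1 is high in dvl1-1D alone and DVL8 in 35S:DVL8 alone, while DVL6 and DVL20 are highest in the 3 dvl1-1D libraries.

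Of the 12 tested genes within 20000 bases of DVL1, 9 were called, 8 of them higher in dvl1-1D, where 33.2% of all tested genes were called and 19% were higher. Of the 7 tested genes near DVL8, 2 were called, a share near that background. The 9 include AT5G16040 and AT5G16050, whose calls were lost when single libraries were left out. These counts come from a single stretch of chromosome each, and the difference between them was not tested. AT5G16030 (chr5:5237970-5240748) had 44.3, 36.5 and 37 RPKM in dvl1-1D, against 18.2, 18.5 and 18.7 RPKM in 35S:DVL8 and 16.9, 16.4 and 14.8 RPKM in wild type. It was the neighbour with the largest log2 difference, 1.04 ± 0.075 (adjusted p = 1.38e-06), and it overlaps AT5G02515 on the opposite strand, and since counting ignored strand the reads of the pair cannot be told apart. GEX3 (chr5:5229513-5232311), a gamete-expressed gene whose end lies just before DVL1, had 1.65, 1.19 and 1.35 RPKM in dvl1-1D, against 0.396, 0.15 and 0.273 RPKM in 35S:DVL8 (log2 0.91 ± 0.12, adjusted p = 8.74e-05). NIK1, a receptor-like kinase known from antiviral defence, and AT5G16010 rose by 0.50 ± 0.05 and 0.59 ± 0.07 on the log2 scale (adjusted p = 2.62e-05 and 4.65e-05). AT5G15980 was the neighbour that fell, to 14.3, 15 and 15.3 RPKM in dvl1-1D, against 18.4, 18.5 and 18 RPKM in 35S:DVL8 (log2 -0.28 ± 0.05, adjusted p = 0.00112). Whether the insertion that raised DVL1 also acts on these genes was not tested.

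Across the transcriptome, 6549 of 19704 genes (33.2%) differed between dvl1-1D and 35S:DVL8 by limma at an adjusted p under 0.05, 3750 higher and 2799 lower in dvl1-1D. Most differences were small: the median size among called genes was 0.30 on the log2(RPKM + 1) scale. On that scale, which understates changes of low genes, 130 genes (0.66%) passed 2-fold, 103 higher and 27 lower. With 0.1 added to RPKM in place of 1, the count was 269. The 3 libraries of the lines did not overlap at 8812 genes (44.7%). The balance of directions depended on scaling. With median-of-ratios scaling 2906 genes were higher and 3595 lower in dvl1-1D, and with quantile normalization 2850 were higher and 3572 lower, and these scalings shifted the median of all genes by -0.039 and -0.051 (log2). Without replicate 2 of 35S:DVL8, 5675 genes were called, of which 5207 were among the 6549.

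**Figure D2:**
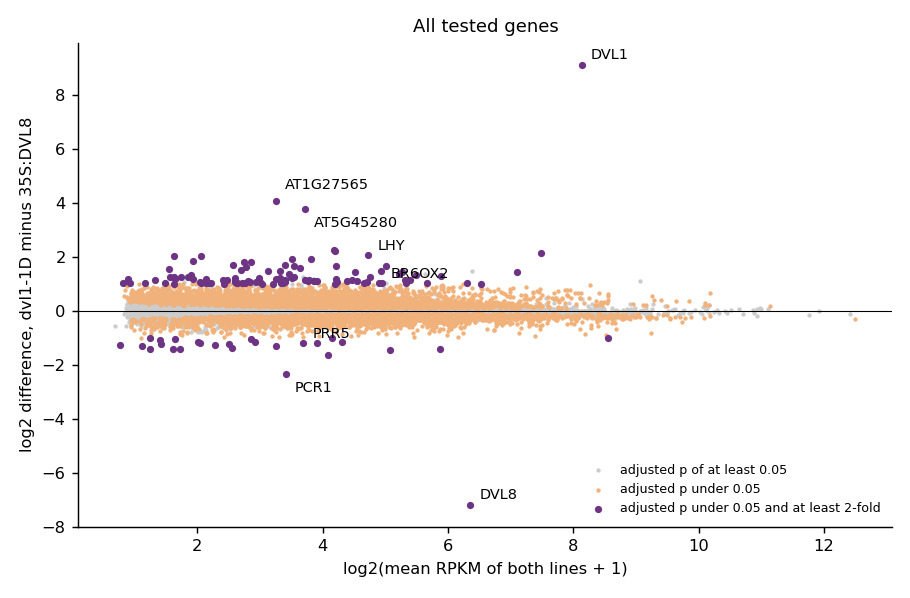
Log2 difference between dvl1-1D and 35S:DVL8 against the mean level of both lines for the 19704 tested genes. DVL1 and DVL8 lie far outside the cloud, the 130 genes past 2-fold in RPKM + 1 are drawn larger, and most of the 6549 called genes lie close to 0.

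The wild-type mean lay between the lines for 3998 of the 6549 called genes. It was closer to 35S:DVL8 for 5641 (86.1%) and closer to dvl1-1D for 908, against 66.1% closer to 35S:DVL8 among genes that were not called. The median distance from wild type over the called genes was 0.26 for dvl1-1D and 0.06 for 35S:DVL8 (log2). Tested against wild type over the same genes, 6231 (31.6%) were called in dvl1-1D, 3400 higher and 2831 lower, and 27 (0.137%) in 35S:DVL8, 12 higher and 15 lower. The 3 comparisons share libraries and are not independent. The count for 35S:DVL8 was fragile: it was 291 without its replicate 1, 28 without replicate 2 and 6 without replicate 3.

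Leaving DVL1 and DVL8 aside, 128 genes passed 2-fold on the log2(RPKM + 1) scale. The wild-type mean was closer to 35S:DVL8 for 115 of them and closer to dvl1-1D for 13, and it lay between the lines for 91. At AT1G27565, AT4G27450, PIL1 and AT1G56300, 35S:DVL8 did not pass the test against wild type and dvl1-1D did. AT1G27565, an uncharacterized protein gene, had 14.9, 17.1 and 18.9 RPKM in dvl1-1D, against 0.0697, 0.14 and 0 RPKM in 35S:DVL8 and 0.0853, 0 and 0.0582 RPKM in wild type (log2 4.07 ± 0.10, adjusted p = 6.96e-12). It was nearly silent in 35S:DVL8 and wild type. PIL1, a basic helix-loop-helix factor of the shade response, had 17.3, 13.8 and 14.6 RPKM in dvl1-1D, against 4.84, 3.89 and 3.22 RPKM in 35S:DVL8 and 5.16, 4.79 and 4.84 RPKM in wild type (log2 1.71 ± 0.20, adjusted p = 4.26e-05). AT4G27450, annotated as an aluminum-induced protein, had 23.2, 17.1 and 23.2 RPKM in dvl1-1D, against 4.28, 5.26 and 5.07 RPKM in 35S:DVL8 (log2 1.91 ± 0.16, adjusted p = 5.37e-06). Among the genes that fell, the DnaJ-domain gene AT1G56300 had 4.14, 4.2 and 5.18 RPKM in dvl1-1D, against 11.8, 12.8 and 13.1 RPKM in 35S:DVL8 and 12.7, 11.9 and 12.5 RPKM in wild type (log2 -1.30 ± 0.15, adjusted p = 3.34e-05).

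At the 13 others, 35S:DVL8 lay further from wild type. Of these, only AT5G45280, AT3G42090 and AT3G06645 passed the test of 35S:DVL8 against wild type. The rest had adjusted p between 0.0771 and 0.626, and at AT1G28840 and SCRL14 the lines overlapped. Replicate 2 of 35S:DVL8 was the lowest library of its group at RALFL9, PCR11, AT5G26692 and AT1G49290, among others. AT5G45280 (chr5:18345534-18349695), which encodes a pectin acetylesterase of the cell wall, had 24.8, 21.3 and 24.5 RPKM in dvl1-1D, against 0.784, 0.813 and 0.783 RPKM in 35S:DVL8 and 18.8, 21.8 and 22 RPKM in wild type. All 3 libraries of 35S:DVL8 were at the same low level, and the log2 difference was 3.77 ± 0.08 (adjusted p = 4.79e-13). The pseudogene AT3G42090 followed it, with 3.04, 5.83 and 3.06 RPKM in dvl1-1D, against 0.315, 0 and 0.261 RPKM in 35S:DVL8 and 1.93, 2.77 and 2.37 RPKM in wild type (log2 2.03 ± 0.26, adjusted p = 7.94e-05). In the other direction, the long noncoding RNA AT3G06645 had no read in the 3 dvl1-1D libraries, against 1.67, 1.16 and 1.38 RPKM in 35S:DVL8, and 0, 0 and 0.214 RPKM in wild type (adjusted p = 1.59e-05). PCR1, a PLANT CADMIUM RESISTANCE gene, was not among the 13. It had 1.06, 0.905 and 0.701 RPKM in dvl1-1D, against 3.21, 49 and 3.07 RPKM in 35S:DVL8 and 3.84, 5.50 and 3.96 RPKM in wild type. Its log2 difference of -2.34 ± 0.66 (adjusted p = 0.015) rested in size on replicate 2 of 35S:DVL8, without which it was -1.14 (adjusted p = 0.000682).

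Clock genes differed widely and in both directions. Of 29 tested members of the circadian clock list, 9 were higher and 10 lower in dvl1-1D, against 19% and 14.2% of all tested genes, and the wild-type mean was closer to 35S:DVL8 for all 19. The median of the list was -0.03, beside 0.03 for all genes. LHY, a morning MYB factor of the central loop, had 44.9, 42.2 and 38.5 RPKM in dvl1-1D, against 8.62, 9.64 and 9.53 RPKM in 35S:DVL8 and 10.8, 10.6 and 10.2 RPKM in wild type (log2 2.06 ± 0.21, adjusted p = 1.52e-05). The related activator RVE4 had 43.4, 44.8 and 43.7 RPKM in dvl1-1D, against 32.5, 33.4 and 34.4 RPKM in 35S:DVL8 (log2 0.39 ± 0.04, adjusted p = 3.04e-05). LNK4, of the family of coactivators that work with RVE factors, rose by 0.65 ± 0.08 (adjusted p = 5.41e-05). PRR5, a pseudo-response regulator that represses the morning genes later in the day, had 6.63, 6.96 and 6.85 RPKM in dvl1-1D, against 16.1, 17.1 and 17.8 RPKM in 35S:DVL8 and 20.5, 17.8 and 19.1 RPKM in wild type (log2 -1.20 ± 0.16, adjusted p = 0.000133). CCR2, an RNA-binding output gene that peaks in the evening, had 240, 246 and 260 RPKM in dvl1-1D, against 532, 454 and 528 RPKM in 35S:DVL8 and 530, 547 and 532 RPKM in wild type (log2 -1.02 ± 0.08, adjusted p = 5.37e-06). Its relative CCR1 fell with it, to 215, 204 and 194 RPKM in dvl1-1D, against 406, 334 and 383 RPKM in 35S:DVL8 (log2 -0.87 ± 0.08, adjusted p = 1.26e-05). At each of these 6 genes the groups did not overlap. No source used here gives the hour of harvest, so a shift of phase, a change of level and a difference in harvest time cannot be told apart.

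The evening element AAAATATCT, a known binding site of LHY and its relatives, was searched on both strands in the 300 bases before the annotated gene start (RefSeq TAIR10.1). Promoters of CCR2 and PRR5 are shown as the clock genes called lower with the most copies, 3 and 2, which stand in capitals. They lie at chr2:9266558-9266857 and chr5:8358547-8358846, both on the minus strand.
CCR2: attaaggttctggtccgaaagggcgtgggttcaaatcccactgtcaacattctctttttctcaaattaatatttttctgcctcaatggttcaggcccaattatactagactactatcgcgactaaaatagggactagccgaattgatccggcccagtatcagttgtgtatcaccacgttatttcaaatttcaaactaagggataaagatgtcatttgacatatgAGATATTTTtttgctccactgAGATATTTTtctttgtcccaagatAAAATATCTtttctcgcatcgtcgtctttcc
PRR5: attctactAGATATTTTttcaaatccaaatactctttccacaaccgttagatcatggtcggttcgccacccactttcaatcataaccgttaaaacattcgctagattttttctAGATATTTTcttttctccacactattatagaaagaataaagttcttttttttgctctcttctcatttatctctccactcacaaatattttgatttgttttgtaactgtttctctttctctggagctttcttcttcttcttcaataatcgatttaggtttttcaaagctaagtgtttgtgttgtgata
FKF1, LUX and CCR1 held 1 copy each. In all, 5 of the 10 clock genes called lower in dvl1-1D had the element, 1 of the 9 called higher (COL2) and 2 of the 10 that were not called. Over 19622 tested genes with such a window the share was 2.94%. It was 4.79% of the 2796 genes called lower and 2.48% of the 3743 called higher in dvl1-1D. A match describes letters only and says nothing of binding.

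Genes that respond to sugar starvation and darkness were higher in dvl1-1D. Of 21 tested members 17 were called higher and 0 lower, against 19% and 14.2% of all tested genes. At an unadjusted p under 0.05, 0 were lower as well. The list's median was 0.52, beside 0.03 for all genes. The wild-type mean was closer to 35S:DVL8 for 16 of the 17. DIN1, the senescence gene also known as SEN1, had 3.92, 3.6 and 3.6 RPKM in dvl1-1D, against 0.897, 0.904 and 1.13 RPKM in 35S:DVL8 and 1.78, 1.81 and 2.14 RPKM in wild type (log2 1.25 ± 0.14, adjusted p = 4.22e-05). Here the lines lay on opposite sides of wild type, though 35S:DVL8 did not pass the test against wild type. DRM1, a dormancy-associated gene, had 24.8, 26.2 and 27 RPKM in dvl1-1D, against 12.6, 11.4 and 15.3 RPKM in 35S:DVL8 (log2 0.95 ± 0.10, adjusted p = 2.15e-05). BZIP1, a transcription factor of the low-energy response, had 11.3, 10.3 and 10.4 RPKM in dvl1-1D, against 5.1, 5.22 and 6.56 RPKM in 35S:DVL8 (log2 0.82 ± 0.10, adjusted p = 5.82e-05). AKINBETA1, a subunit of the energy-sensing SnRK1 kinase, and TPS8, of the trehalose phosphate synthase family, rose by 0.76 ± 0.10 and 0.74 ± 0.09 (adjusted p = 0.000113 and 8.82e-05). The count stayed between 15 and 17 when any 1 of the 6 libraries was left out. As for the clock genes, the hour of harvest is not given, and its part in these values was not tested. AT3G15450 and AT2G20670, which rank among the largest differences outside the list, are annotated as an aluminum-induced protein and a putative sugar phosphate exchanger. AT3G15450 had 328, 287 and 255 RPKM in dvl1-1D, against 61, 59.9 and 72.5 RPKM in 35S:DVL8 and 96.9, 105 and 94.9 RPKM in wild type (log2 2.15 ± 0.23, adjusted p = 2.46e-05).

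**Figure D3:**
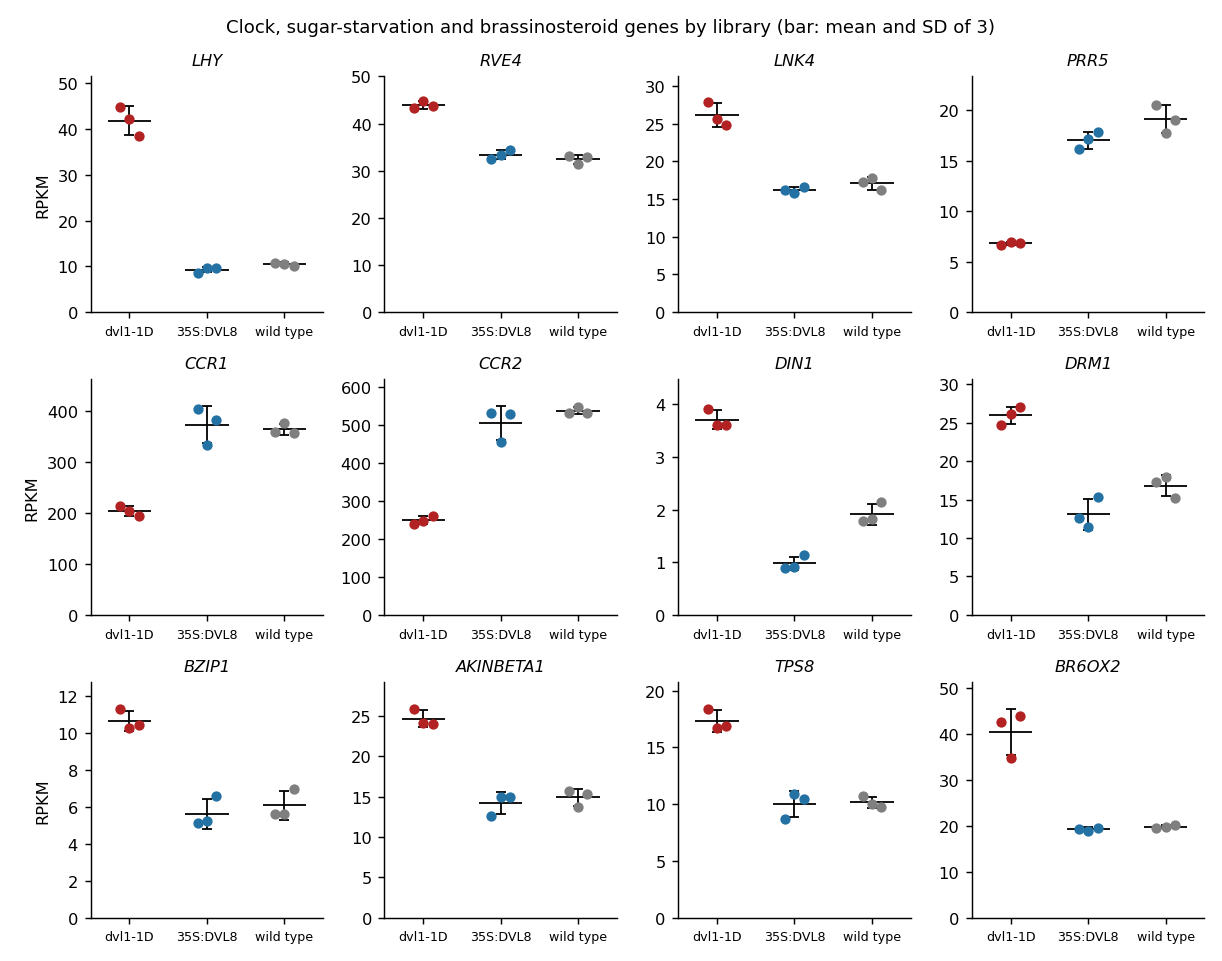
RPKM of clock genes (LHY to CCR2), sugar-starvation genes (DIN1 to TPS8) and the brassinosteroid gene BR6OX2 in each library of dvl1-1D, 35S:DVL8 and wild type (points: libraries; bars: mean and SD of 3). LHY, RVE4, LNK4 and the starvation genes are highest in dvl1-1D, PRR5, CCR1 and CCR2 are lowest there, and 35S:DVL8 lies near wild type at most of them.

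Brassinosteroid and early auxin response genes were called higher in dvl1-1D more than lower, beside 19% higher and 14.2% lower of all tested genes. Brassinosteroids, auxin and gibberellin promote cell elongation in shoots. Of 22 tested brassinosteroid genes 12 were higher and 1 lower, with a median of 0.21. The count of higher genes was 8 under each of the other scalings, and 8 without replicate 2 of dvl1-1D. BR6OX2, the oxidase of the last steps of brassinosteroid synthesis, had 42.5, 34.8 and 43.9 RPKM in dvl1-1D, against 19.3, 18.8 and 19.6 RPKM in 35S:DVL8 and 19.6, 19.8 and 20.1 RPKM in wild type (log2 1.03 ± 0.07, adjusted p = 6.89e-07). CPD, a cytochrome P450 of the same pathway, rose by 0.42 ± 0.07 (adjusted p = 0.000369), and so did the inhibitory kinase BIN2, by 0.48 ± 0.04 (adjusted p = 1.76e-06). The reductase DET2 fell to 9.9, 8.62 and 8.72 RPKM in dvl1-1D, against 12.8, 12.7 and 13 RPKM in 35S:DVL8 (log2 -0.46 ± 0.06, adjusted p = 7.34e-05). Among 28 early auxin response genes 13 were higher and 3 lower, with a median of 0.19. The count of lower auxin genes was 0 without replicate 2 of dvl1-1D or replicate 3 of 35S:DVL8, and 1 without replicate 3 of dvl1-1D or with the 6 libraries alone. IAA7, an Aux/IAA repressor, had 255, 239 and 240 RPKM in dvl1-1D, against 195, 162 and 166 RPKM in 35S:DVL8 (log2 0.49 ± 0.08, adjusted p = 0.000456). Among 23 gibberellin genes 6 were higher and 2 lower, 34.8% called beside 33.2% of all genes. The response gene GASA1 had 94, 89.7 and 89.7 RPKM in dvl1-1D, against 52.7, 57.7 and 62.4 RPKM in 35S:DVL8 (log2 0.66 ± 0.11, adjusted p = 0.000597). The synthesis enzyme GA20OX1 fell to 3.92, 3.64 and 3.13 RPKM in dvl1-1D, against 6.37, 4.97 and 5.32 RPKM in 35S:DVL8 (log2 -0.52 ± 0.09, adjusted p = 0.00082). Called shares were below that of all genes for cytokinin (18.8%) and jasmonate (18.5%), with 2 higher and 1 lower of 16 cytokinin genes (1 higher without replicate 1 or 2 of dvl1-1D) and 2 higher and 3 lower of 27 jasmonate genes (8 lower without replicate 1 of 35S:DVL8 and 7 with median-of-ratios scaling).

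Genes that remodel the wall and shape cells differed by family. Called shares were 54.2% for XTH genes, 30% for expansins and 57.1% for cell shape genes, beside 33.2% of all tested genes (19% higher and 14.2% lower). Of 24 tested XTH genes, whose enzymes cut and rejoin xyloglucan, 13 were higher and 0 lower in dvl1-1D, 0 also at an unadjusted p under 0.05, with a median of 0.41. XTH15 had 20.8, 20.5 and 29.4 RPKM in dvl1-1D, against 10.2, 11.3 and 11.8 RPKM in 35S:DVL8 and 10.9, 11.4 and 11.5 RPKM in wild type (log2 1.01 ± 0.14, adjusted p = 0.000201). XTH16 had 117, 94.8 and 142 RPKM in dvl1-1D, against 56, 70.6 and 67.6 RPKM in 35S:DVL8 (log2 0.84 ± 0.13, adjusted p = 0.00035). Expansins, which loosen walls by another route, showed no such bias, with 2 higher and 4 lower of 20 (1 higher without replicate 1 of 35S:DVL8). EXPA15 fell to 34.4, 39.6 and 36 RPKM in dvl1-1D, against 71.7, 60.9 and 63.7 RPKM in 35S:DVL8 and 72.7, 80.8 and 75.1 RPKM in wild type (log2 -0.82 ± 0.08, adjusted p = 8.81e-06). Of 21 cell shape and cytoskeleton genes 10 were higher and 2 lower, and 6 were higher when the 6 libraries were fitted alone. LNG2, known for promoting lengthwise growth of leaves, had 47.7, 40.3 and 43.5 RPKM in dvl1-1D, against 30.6, 32.8 and 32 RPKM in 35S:DVL8 (log2 0.45 ± 0.06, adjusted p = 0.000143). SPK1, an activator of ROP GTPases that shape cells, fell by 0.35 on the log2 scale (SE 0.04, adjusted p = 4.03e-05).

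Of 29 tested mitotic cyclins and kinases 0 were higher and 11 lower in dvl1-1D, with a median of -0.17 on the log2 scale. Of 26 DNA replication genes 0 were higher and 10 lower, with a median of -0.16. Called shares were 37.9% and 38.5%, beside 33.2% of all tested genes (19% higher and 14.2% lower). No member of either list was higher at an unadjusted p under 0.05. With the 6 libraries fitted alone, 6 members of each list were lower. Under each of the other scalings 16 mitotic and 14 replication genes were lower. With 1 library left out the highest counts were 12 and 13. The counts also depended on single libraries: 5 mitotic genes were called without replicate 1 of dvl1-1D and 7 without its replicate 3 or without replicate 2 or 3 of 35S:DVL8, and 5 replication genes were called without replicate 3 of dvl1-1D or of 35S:DVL8. TSO2, a ribonucleotide reductase subunit, had 42.1, 42.2 and 38.1 RPKM in dvl1-1D, against 54.9, 59.1 and 57.1 RPKM in 35S:DVL8 and 59.3, 56.1 and 57.9 RPKM in wild type (log2 -0.47 ± 0.06, adjusted p = 4.29e-05). The mitotic kinase CDKB2;1 had 27.5, 29 and 29.6 RPKM in dvl1-1D, against 33.4, 38.6 and 36.3 RPKM in 35S:DVL8 (log2 -0.32 ± 0.05, adjusted p = 0.000309). Of 19 D cyclins and kinase inhibitors 4 were higher and 2 lower, 31.6% called. The lower count was 0 without replicate 2 of 35S:DVL8 or replicate 1 or 2 of dvl1-1D. KRP4, an inhibitor of cyclin-dependent kinases, had 8.79, 9.79 and 9.68 RPKM in dvl1-1D, against 6, 7.34 and 6.68 RPKM in 35S:DVL8 (log2 0.44 ± 0.08, adjusted p = 0.00115). Among 18 genes of ERECTA signalling and stomata 4 fell and 0 rose, 22.2% called, and 0 rose also at an unadjusted p under 0.05. The count of 4 was 1 without replicate 3 of 35S:DVL8, 2 without replicate 3 of dvl1-1D and 7 with quantile normalization. The stomatal receptor TMM had 5.06, 5.97 and 5.75 RPKM in dvl1-1D, against 7.43, 8.34 and 7.15 RPKM in 35S:DVL8 (log2 -0.39 ± 0.08, adjusted p = 0.00166).

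Regulators of flower and organ patterning had called shares between 9.09% and 35.3%, beside 33.2% of all tested genes, and most of these lists lay below that share. Of 17 floral organ identity genes 4 were higher and 2 lower, and AG, which specifies stamens and carpels, had 30.9, 33 and 28.6 RPKM in dvl1-1D, against 22.5, 24.7 and 24.8 RPKM in 35S:DVL8 (log2 0.35 ± 0.06, adjusted p = 0.000685). Of 25 flowering time genes 5 were higher and 3 lower, with 3 higher without replicate 1 or 3 of dvl1-1D or replicate 1 of 35S:DVL8 and 6 lower with quantile normalization. The floral repressor FLC was low everywhere, at 1.25, 1.49 and 1.37 RPKM in dvl1-1D, against 0.207, 0.0694 and 0.171 RPKM in 35S:DVL8 and 0.127, 0.202 and 0.23 RPKM in wild type (log2 1.04 ± 0.11, adjusted p = 2.6e-05). Its relative MAF5 had 7.2, 7.45 and 7.16 RPKM in dvl1-1D, against 3.49, 2.34 and 3.5 RPKM in 35S:DVL8 (log2 1.02 ± 0.22, adjusted p = 0.00305). Counts of higher and lower were 3 and 0 of 16 for shoot meristem genes, 2 and 3 of 18 for organ polarity, 4 and 1 of 17 for TCP factors, 1 and 1 of 22 for growth-regulating factors, 2 and 0 of 13 for ovule genes, 1 and 1 of 13 for fruit genes and 1 and 0 of 11 for style genes. With single libraries left out these small counts moved by at most 2 genes, among them shoot meristem genes with 1 higher without replicate 1 of 35S:DVL8, and 4 growth-regulating factors were lower under each of the other scalings. STM, which keeps the shoot meristem, had 58.9, 54.2 and 60.7 RPKM in dvl1-1D, against 48.2, 45.5 and 50.1 RPKM in 35S:DVL8 (log2 0.27 ± 0.05, adjusted p = 0.000965). KAN2, a factor of the lower organ face, fell to 5.65, 5.65 and 5.59 RPKM in dvl1-1D, against 7.3, 8.08 and 9.01 RPKM in 35S:DVL8 (log2 -0.46 ± 0.07, adjusted p = 0.000451).

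Of 11 tested nectary genes, 3 were higher in dvl1-1D than in 35S:DVL8, and none was called lower by limma, with 1 lower at an unadjusted p under 0.05. The called share was 27.3%, below the 33.2% of all tested genes. The list's median was 0.0017 on the log2 scale, and -0.07 without replicate 2 of 35S:DVL8. CWINV4, the cell wall invertase needed for nectar, had 34.7, 38.5 and 36.9 RPKM in dvl1-1D, against 26.7, 23.7 and 26.9 RPKM in 35S:DVL8 and 19.4, 21.7 and 20.8 RPKM in wild type. The lines differed by 0.50 ± 0.07 (log2, adjusted p = 0.000121), dvl1-1D differed from wild type (adjusted p = 4.29e-06), and 35S:DVL8 did not pass that test (adjusted p = 0.0695). SWEET9, the sucrose exporter of nectaries, had 74.4, 80.7 and 78.8 RPKM in dvl1-1D, against 69.7, 49.4 and 67.2 RPKM in 35S:DVL8 and 39.1, 38.5 and 40.1 RPKM in wild type. Both lines differed from wild type (adjusted p = 3.81e-05 for dvl1-1D and 0.0388 for 35S:DVL8). The difference between the lines, 0.34 ± 0.11 (log2, adjusted p = 0.0296), was lost without replicate 2 of 35S:DVL8 (adjusted p = 0.116), without replicate 2 or 3 of dvl1-1D (0.0848 and 0.0695) and with median-of-ratios scaling (0.0613). CRC, the YABBY factor that nectaries require, had 30.3, 30.8 and 29.7 RPKM in dvl1-1D, against 23, 20 and 25.7 RPKM in 35S:DVL8 (log2 0.40 ± 0.08, adjusted p = 0.00295). Of these 3 genes, CRC in 35S:DVL8 overlapped its wild-type values of 20.8, 19.2 and 20.3 RPKM. The 3 nectary markers are these same 3 called genes. They summed to between 139 and 150 RPKM in dvl1-1D, 93.1 and 120 RPKM in 35S:DVL8 and 79.4 and 81.1 RPKM in wild type.

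Mature pollen genes had the largest share of called members among the lists. Of 30 tested members 26 were higher in dvl1-1D than in 35S:DVL8 and 0 lower, against 19% and 14.2% of all tested genes. At an unadjusted p under 0.05, 0 were lower as well, and the list's median was 0.58. In contrast to the clock list, the wild-type mean was closer to dvl1-1D for 22 of the 26. Against wild type, 3 members were called higher in dvl1-1D and none passed in 35S:DVL8, whose median over the list was -0.41 against 0.10 for dvl1-1D. GEX3, described above as a neighbour of DVL1, is among the 26 and also among these 3. SKS13, a pollen multicopper-oxidase-like protein, had 323, 380 and 285 RPKM in dvl1-1D, against 235, 165 and 224 RPKM in 35S:DVL8 and 273, 291 and 289 RPKM in wild type (log2 0.67 ± 0.12, adjusted p = 0.00129). VGD1, a pectin methylesterase of pollen tubes, had 330, 392 and 295 RPKM in dvl1-1D, against 243, 169 and 242 RPKM in 35S:DVL8 and 267, 300 and 293 RPKM in wild type (log2 0.65 ± 0.13, adjusted p = 0.00191). At SKS13, VGD1 and SKS11 replicate 2 of 35S:DVL8 was the lowest library and replicate 2 of dvl1-1D the highest. The count of 26 became 20, with a median of 0.41, without replicate 2 of 35S:DVL8, and 16 without replicate 2 of dvl1-1D. SKS11 and SKS13 lie side by side on chromosome 3 and are similar in sequence, so how reads were split between them is uncertain. SKS11 had 60.7, 79.2 and 59.9 RPKM in dvl1-1D, against 45.5, 33.1 and 44.5 RPKM in 35S:DVL8 and 51.5, 56.6 and 56.4 RPKM in wild type (log2 0.69 ± 0.12, adjusted p = 0.00085). The summed level of 5 pollen markers lay between 484 and 659 RPKM in dvl1-1D, 299 and 421 RPKM in 35S:DVL8 and 431 and 481 RPKM in wild type. No source used here gives the share of open flowers in each sample, and its part in these values was not tested. Tapetum and pollen coat genes, expressed in anther tissue around the pollen, gave 6 higher and 1 lower of 26, 26.9% called beside 33.2% of all genes. The 4 tapetum markers summed to between 694 and 855 RPKM in dvl1-1D, 543 and 707 RPKM in 35S:DVL8 and 439 and 519 RPKM in wild type. Most of that sum was the coat gene GRP17, with means of 768, 586 and 455 RPKM in the same order. The other markers, AMS, MS1 and CYP703A2, were not called between the lines (log2 -0.03, -0.22 and -0.02). The coat protein gene GRP19 had 630, 715 and 780 RPKM in dvl1-1D, against 506, 531 and 564 RPKM in 35S:DVL8 and 466, 470 and 477 RPKM in wild type (log2 0.40 ± 0.06, adjusted p = 0.00035). Of 9 tested meiotic crossover genes 1 was called.

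Of 18 tested superoxide dismutase and copper response genes, 4 were higher and 2 lower in dvl1-1D, 33.3% called beside 33.2% of all tested genes. The list's median was 0.05 between the lines and -0.03 for 35S:DVL8 against wild type. In the latter comparison 1 member was called higher and 2 lower, so the genes below do not stand for the list. The part of copper supply was not tested. The dismutases remove superoxide, using copper and zinc or iron at the active site, and plants are known to exchange the copper for the iron forms when copper is short. CSD1, the cytosolic copper/zinc enzyme, had 208, 211 and 169 RPKM in dvl1-1D, against 92.9, 113 and 107 RPKM in 35S:DVL8 and 185, 155 and 164 RPKM in wild type (log2 0.90 ± 0.10, adjusted p = 2.66e-05). The plastid copper/zinc enzyme CSD2 had 183, 210 and 181 RPKM in dvl1-1D, against 129, 135 and 139 RPKM in 35S:DVL8 and 207, 184 and 180 RPKM in wild type (log2 0.50 ± 0.07, adjusted p = 0.000249). CCS, the chaperone that loads copper into both, had 41.9, 42.3 and 34.8 RPKM in dvl1-1D, against 25.9, 26.8 and 29.5 RPKM in 35S:DVL8 and 39.5, 36.4 and 35.3 RPKM in wild type (log2 0.52 ± 0.08, adjusted p = 0.000309). The iron enzyme FSD1 went the other way, with 280, 237 and 249 RPKM in dvl1-1D, against 523, 460 and 462 RPKM in 35S:DVL8 and 267, 348 and 319 RPKM in wild type (log2 -0.91 ± 0.10, adjusted p = 2.9e-05). At each of these 4 genes the 3 libraries of 35S:DVL8 lay outside the range of both other groups. Against wild type 35S:DVL8 passed the test at CSD1 (adjusted p = 0.0131), CSD2 (0.018) and FSD1 (0.028) but not at CCS (0.054). At FSD1 dvl1-1D also fell below wild type (adjusted p = 0.0472). FSD3, another iron enzyme, fell in dvl1-1D instead, to 42.7, 46.9 and 43 RPKM, against 61.7, 58.1 and 59.1 RPKM in 35S:DVL8 and 62, 58.8 and 61.5 RPKM in wild type (log2 -0.43 ± 0.06, adjusted p = 0.000152).

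**Figure D4:**
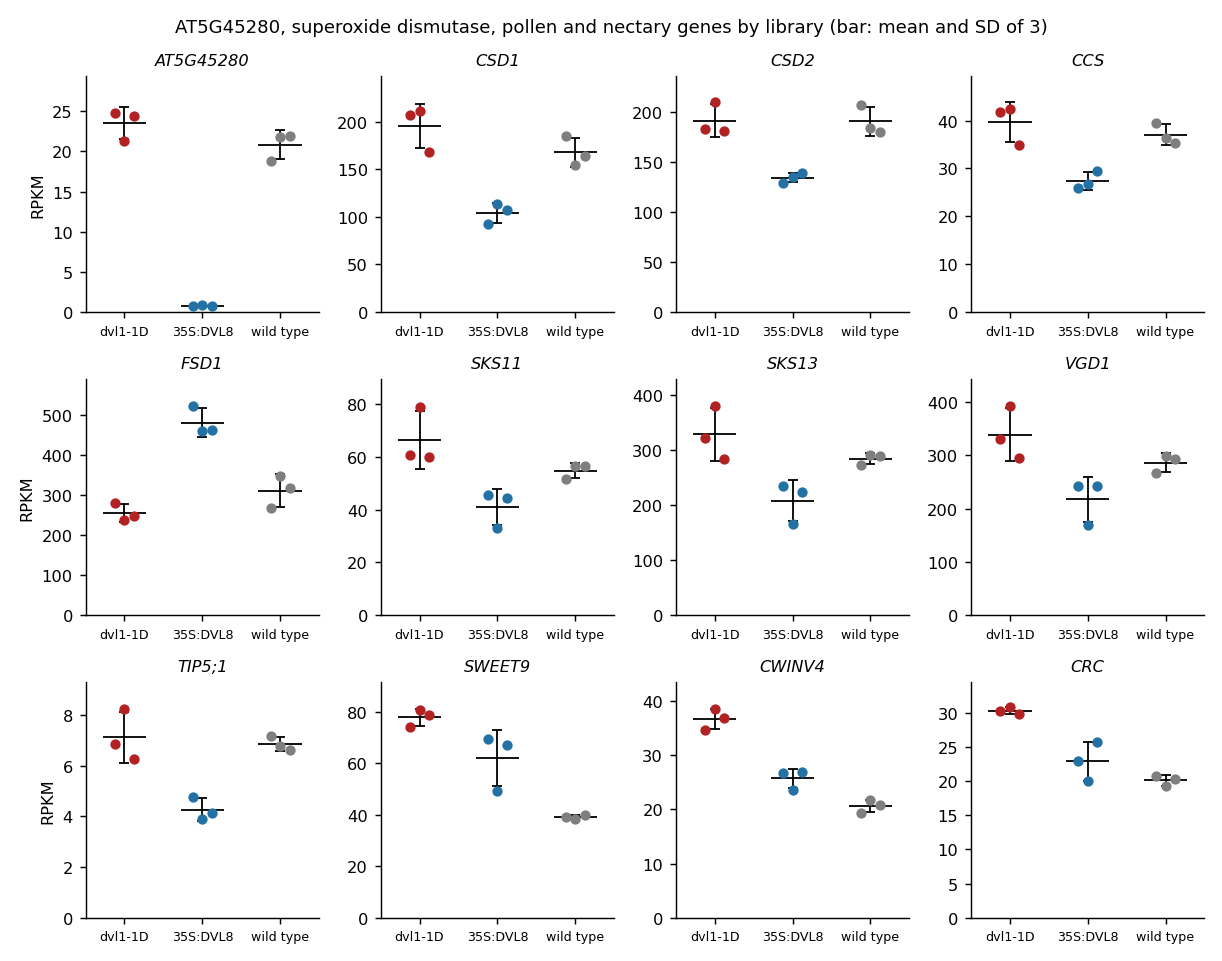
RPKM of AT5G45280, superoxide dismutase genes (CSD1, CSD2, CCS, FSD1), pollen genes (SKS11, SKS13, VGD1, TIP5;1) and nectary genes (SWEET9, CWINV4, CRC) in each library of dvl1-1D, 35S:DVL8 and wild type (points: libraries; bars: mean and SD of 3). In AT5G45280, CSD1, CSD2, CCS and FSD1 the 35S:DVL8 libraries stand alone, and the pollen genes are lowest in 35S:DVL8.

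Defence and stress lists gave mixed results. Called shares were 33.3% for salicylate and defence, 18.8% for touch and wound and 30.8% for WRKY genes, beside 33.2% of all tested genes. Of 21 salicylate and defence genes 1 was higher and 6 lower in dvl1-1D. NIMIN1, which binds the salicylate coactivator NPR1, had 10.1, 10.5 and 13.2 RPKM in dvl1-1D, against 23.2, 29.3 and 27.2 RPKM in 35S:DVL8 and 26.5, 23.4 and 26.1 RPKM in wild type (log2 -1.17 ± 0.12, adjusted p = 2.14e-05). PCC1, named for its control by pathogen and clock, had 23.8, 16.6 and 12 RPKM in dvl1-1D, against 38.4, 49.7 and 55.4 RPKM in 35S:DVL8 and 59.9, 54.3 and 60.3 RPKM in wild type (log2 -1.44 ± 0.18, adjusted p = 8.18e-05). The count of higher defence genes was 6 without replicate 2 of 35S:DVL8, and the list's median moved from -0.07 to 0.21. Touch and wound genes gave 3 higher and 0 lower of 16, with 0 lower at an unadjusted p under 0.05, and 6 higher without that library. MYB51, a regulator of indole glucosinolates, had 5.79, 3.99 and 3.23 RPKM in dvl1-1D, against 0.603, 1.48 and 1.25 RPKM in 35S:DVL8 (log2 1.33 ± 0.20, adjusted p = 0.000281). WRKY factors gave 7 higher and 1 lower of 26, 10 higher without replicate 2 of 35S:DVL8, 4 higher without replicate 1 of 35S:DVL8, and 3 higher without replicate 1 of dvl1-1D or with quantile normalization. WRKY54 fell to 6.1, 4.98 and 5.73 RPKM in dvl1-1D, against 8.59, 14.9 and 12.9 RPKM in 35S:DVL8 (log2 -0.96 ± 0.14, adjusted p = 0.000181).

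Among the other lists, 3 of 39 photosynthesis genes were higher and 4 lower, 4 of 19 flavonoid genes were higher and 4 lower, 3 of 14 trichome genes were higher and 4 lower, 1 of 14 SWEET transporters was higher and 1 lower, and 1 of 11 heat shock genes was higher and 1 lower. Called shares were 17.9%, 42.1%, 50%, 14.3% and 18.2% in that order, beside 33.2% of all tested genes. Karrikin and strigolactone genes gave 5 higher and 1 lower of 11, and 2 or 3 higher with any 1 library left out or under each of the other scalings. The flavonoid counts moved to 2 lower without replicate 2 of 35S:DVL8, 7 higher without replicate 3 of dvl1-1D and 2 higher without replicate 2 of dvl1-1D or replicate 3 of 35S:DVL8. Photosynthesis genes gave 0 higher without replicate 3 of 35S:DVL8, 1 higher without replicate 2 or 3 of dvl1-1D, 1 lower without replicate 1 of either line and 2 lower without replicate 2 of 35S:DVL8. FLS1, the flavonol synthase, fell to 146, 152 and 145 RPKM in dvl1-1D, against 212, 201 and 221 RPKM in 35S:DVL8 and 234, 227 and 229 RPKM in wild type (log2 -0.52 ± 0.04, adjusted p = 6.08e-06). HSP70 had 5.89, 5.79 and 7.34 RPKM in dvl1-1D, against 3.7, 3.39 and 3.42 RPKM in 35S:DVL8 (log2 0.70 ± 0.08, adjusted p = 5.99e-05). SMXL8, a repressor of strigolactone signalling, fell to 2.7, 3.18 and 3.48 RPKM in dvl1-1D, against 5.51, 5.31 and 4.51 RPKM in 35S:DVL8 and 6.99, 6.5 and 5.91 RPKM in wild type (log2 -0.57 ± 0.09, adjusted p = 0.00038). Of 3 tested mature seed genes none was called by limma, 0 also at an unadjusted p under 0.05, and of 3 tested root genes 1 was lower.

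**Figure D5:**
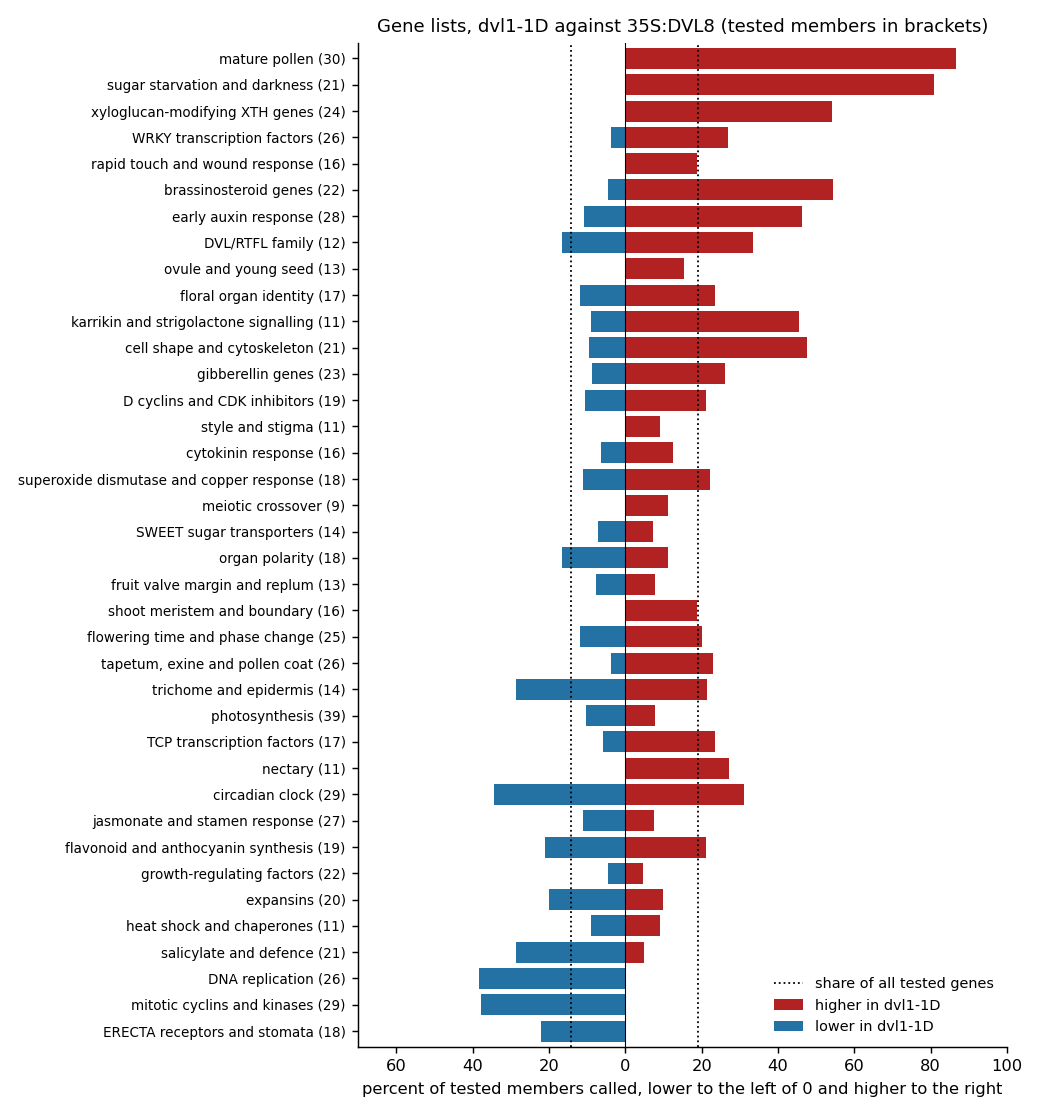
Percent of tested members of each gene list called higher (right) or lower (left) in dvl1-1D than in 35S:DVL8, with the shares of all tested genes as dotted lines (19% higher, 14.2% lower), ordered by median log2 difference. Mature pollen (26 of 30) and sugar starvation (17 of 21) stand furthest to the right, and DNA replication and mitotic genes have members on the left side alone.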

How the data were processed

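RNA-seq libraries of Arabidopsis inflorescences were used as the authors' deposited RPKM values, 15 libraries in 5 groups of 3. The submitters' processing notes name cutadapt, HISAT2 and HTSeq, and the name given for the table in the series text states unstranded counting; no source used here gives the genome build. The authors divided reads by gene length and library total. Whole reads were recovered from the RPKM steps for 29911 of 29911 genes above 0 (100.0%, tolerance 0.01 reads) and served for depth, floors and read ratios. Totals over the 15 libraries ranged from 22471890 to 36589874.

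Differences were tested on log2(RPKM + 1), a scale that understates changes of low genes, with limma 3.58.1 in R 4.3.3 (mean-variance trend, all 15 libraries in 1 fit, two-sided, Benjamini-Hochberg adjustment over 19704 genes, threshold 0.05). Every adjusted p comes from this fit unless another setting is named. The p-values set a difference against the spread between replicate libraries within the groups, estimated over all 15 libraries. They do not cover variation between independent lines. Gene names came from RefSeq TAIR10.1, to which 37051 of 37336 identifiers matched. Sequences were aligned with Biopython 1.88 in Python 3.11.15. The script was tested on simulated data.

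Named genes were the DVL/RTFL family, the 15 largest differences in each direction with no overlap between the lines, up to 5 called and non-overlapping members of each of 40 gene lists with the smallest adjusted p, and called genes within 20000 bases of DVL1 or DVL8. Members and lists were chosen with earlier results of these data known. Alternatives covered the pseudocount, the filter, the scaling, the libraries fitted, array weights, a replicate block and leaving out each of the 6 libraries.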

Additional observations from a re-analysis of the deposited data

Results flagged for a closer look

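At 22 of the 194 tested named genes, all dvl1-1D and all 35S:DVL8 libraries lay on opposite sides of the 3 wild-type libraries. All 22 were called between the lines by limma. Named genes outside the DVL/RTFL family had been chosen as called between the lines, and most also as non-overlapping. That call was thus set in advance, and the choice favours this pattern. The distances of both lines are taken from the same wild-type libraries. Against wild type, 35S:DVL8 passed limma's test at AT3G42090 alone among the 22 (adjusted p = 0.0388), where dvl1-1D did not (adjusted p = 0.133). None of the 22 therefore passed the test against wild type in both lines. Values are log2 differences, dvl1-1D minus 35S:DVL8. Across all 19704 tested genes, 303 had dvl1-1D above and 35S:DVL8 below wild type, 289 of them called, and 218 had the reverse, 208 of them called.

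Above wild type in dvl1-1D and below it in 35S:DVL8 were the genes AT3G06355 (2.21), AT3G15450 (2.15), LHY (2.06), AT3G42090 (2.03), AT2G07042 (1.84), AT2G05540 (1.80) and AT5G15120 (1.80). DIN1 (1.25) belongs to the sugar starvation list. Among hormone genes the pattern appeared at the brassinosteroid coreceptor BAK1 (0.27), the auxin repressor IAA17 (0.57), the auxin-related growth gene ARL (0.61), the gibberellin-responsive GASA6 (0.46) and the strigolactone repressor SMXL6 (0.32). STK, which specifies ovules, differed by 0.60, the pollen gene SKS11 by 0.69, and the neighbours of DVL1 named KIN2 and AT5G16050 by 0.62 and 0.10. AT5G16050 lost its call when single libraries were left out.

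Below wild type in dvl1-1D and above it in 35S:DVL8 were AT2G39920 (-1.28), AT2G06185 (-1.32), AT2G07605 (-1.42), the nicotianamine synthase gene NAS1 (-1.42) and the polarity gene REV (-0.19).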

How the results depend on the processing

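The 6549 calls between the lines numbered 5188 to 5677 with 1 library left out (2898 to 3374 higher and 2252 to 2536 lower in dvl1-1D), 5158 with the 6 libraries fitted alone and 6580 with a replicate block in 15 libraries. With the replicate block in 6 libraries alone they numbered 3100, 1736 higher and 1364 lower. No pairing by replicate number was seen: same-numbered libraries of the lines had correlations of deviations of -0.166, -0.139 and 0.002. Not every library correlated best with its own number. With 3 libraries a group these values cannot exclude that samples were matched. Genes past 2-fold numbered 130, against 269 with a pseudocount of 0.1 and 113 to 180 with 1 library left out. The 27 calls between 35S:DVL8 and wild type became 12 with the replicate block, 320 with array weights and 6 to 291 with 1 library left out, and the cause was not tested. DVL3, not called (log2 0.01), was the one named gene that changed sign, to -0.0234 with median-of-ratios scaling, -0.0497 with quantile normalization and, with 1 library left out, between -0.136 (without replicate 3 of dvl1-1D) and 0.139 (without replicate 2 of dvl1-1D). No called named gene changed direction in the settings run; 30 of 188 called named genes lost the call in at least 1 leave-one-out, 55 in at least 1 setting. With 3 libraries a group and a single line each, the count of small differences depends on the libraries that estimate the spread; genes under about 1 RPKM were not tested, and low genes are limited by read number.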
